A study of Mus musculus with 6 samples.

Results

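Zic1, Zic2, Zic4 and Zic5, transcription factor genes of the Zic family, were followed in neural progenitors made from mouse embryonic stem cells (mESCs) that differ in Dmrta2. They were taken from the deposited count table by the gene identifiers that GENCODE release M21 gives for these symbols. They are 4 of 48526 genes in the table, and all 4 passed the low-count filter that left 20549 genes for testing. RNA was sequenced from 3 libraries of a line labelled -/- for Dmrta2 and from 3 of a line labelled flox/flox, the control, whose Dmrta2 carries flanking recombinase sites. The columns of each group carry the letters A, B and C, and values of single libraries are given in that order. Each genotype is represented by 1 line, so genotype and line cannot be told apart, and p-values measure the spread between samples of a line. Both groups were differentiated in adherent culture with the BMP receptor inhibitor LDN193189 (100 nM) and the activin and TGF-beta receptor inhibitor SB431542 (10 µM) until day 4. Both also received XAV939, which inhibits Wnt signalling, at 1 µM up to day 6 and the Hedgehog pathway inhibitor cyclopamine (1 µM) from day 2 of a protocol that ran to day 10. Cells of both groups were replated on day 5, and RNA was taken on day 8.

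Zic proteins carry C2H2 zinc fingers closely related to those of the Gli factors that transmit Hedgehog signals, and they act both as DNA-binding factors and as cofactors. In the embryo the genes are expressed in the dorsal neural tube, the roof of the telencephalon and the precursors of cerebellar granule cells, where they help to keep cells proliferating and to lay down dorsal midline structures. Human ZIC2 is a gene of holoprosencephaly, a failure of the forebrain to divide, and deletions that take ZIC1 and ZIC4 together have been found in Dandy-Walker malformation of the cerebellum. The dorsal expression of Zic genes is promoted by BMP signals and restrained by Hedgehog signals.

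The libraries held between 24565560 and 39646793 counts, so that 1 CPM (a read count scaled to library size, here with TMM factors) stands for about 24.6 reads or more, and the Zic genes had between 879 (Zic5, -/- C) and 16207 (Zic1, flox/flox A) reads. Dmrta2 measured 409, 414 and 439 CPM in the -/- libraries, against 85.2, 75.1 and 79.2 CPM in those of flox/flox. The count covers the whole gene and the deleted part of the gene is not named in the labels, so it checks nothing about the deletion, and every direction below is that of the libraries labelled -/-.

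The 4 genes lie as 2 head-to-head pairs. Zic1 (ENSMUSG00000032368) occupies 91358058 to 91365810 of chromosome 9 on the minus strand (GRCm38), and Zic4 (ENSMUSG00000036972) occupies 91362413 to 91389348 on the plus strand. By GENCODE the bodies of Zic1 and Zic4 overlap over 3398 bases, but only 60 exonic bases are shared, which is 1.05% of the exonic length of Zic1 and 0.581% of that of Zic4. A further 468 exonic bases of Zic4 (4.53%) lie under Gm37477, an unclassified antisense transcript. Zic5 (ENSMUSG00000041703) occupies 122456795 to 122465677 of chromosome 14 on the minus strand, and Zic2 (ENSMUSG00000061524) occupies 122475435 to 122479852 on the plus strand. A gap of 9757 bases separates Zic5 and Zic2, and none of their exonic bases overlap another gene. The labels do not state whether counting used strand, so reads in the shared bases of Zic1 and Zic4 cannot be assigned to one of them. Of the windows of 50 bases in their transcripts, Zic1 and Zic4 shared 14, and where these lie was not determined. Zic2 and Zic5 shared none with another of the 4 genes. Of the 50-base windows of Zic5, 7.48% also occur in another gene, nearly all in Gm12241, and reads from there may be counted to either gene.

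The sequences upstream of Zic1, of the pair that did not pass the reported test, and of Zic5, of the pair that did, are shown as examples. They are from the RefSeq promoter table (GRCm38.p6), read 5′ to 3′ on the strand of the gene and ending where the outermost GENCODE exon begins. Capitals mark CANNTG, the E-box that bHLH proteins such as the proneural factors bind.
Zic1, chr9:91365811-91366018, minus strand: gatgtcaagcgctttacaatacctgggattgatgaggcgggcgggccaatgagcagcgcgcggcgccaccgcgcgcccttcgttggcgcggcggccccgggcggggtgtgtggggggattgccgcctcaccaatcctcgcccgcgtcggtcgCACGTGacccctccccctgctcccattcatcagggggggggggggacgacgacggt
Zic5, chr14:122465678-122465908, minus strand: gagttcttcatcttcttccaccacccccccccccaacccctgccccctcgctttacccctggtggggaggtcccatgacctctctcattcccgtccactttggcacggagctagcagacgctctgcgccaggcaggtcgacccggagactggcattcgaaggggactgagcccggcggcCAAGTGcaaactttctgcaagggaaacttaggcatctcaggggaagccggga
In the 250 bases before the RefSeq start, 66.0% of the Zic1 window and 62.4% of the Zic5 window were G or C, against a median of 52.4% over 32851 mouse windows. The Zic1 window held 27 CpG dinucleotides and the Zic5 window 11, against a median of 6. Each window held 1 E-box, as did 66.2% of all windows at least once. The GC box GGGCGG, searched on both strands, was found at 2 places before Zic1 and at none before Zic5, and 32.7% of all windows hold it. The Zic and Gli sequence GGGTGGTC (0.703% of windows, both strands), the Zic sequence CAGCAGG (8.44%, both strands) and the palindromic Dmrt core ACANTGT (6.47%) had no match in the windows of Zic1, Zic4 or Zic5. All 250 bases of the Zic4 window, however, lie in exons of Zic4, downstream of its outermost GENCODE start. Sequence upstream of that start was thus not searched, and no window was used for Zic2. Whether the windows shown stand for their pairs was not tested.

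Zic2 and Zic5, the chromosome 14 pair, fell over 2-fold, and every library labelled -/- lay below every flox/flox library. Zic2, which specifies the dorsal and ventral midline of the forebrain and in the retina the ipsilateral ganglion cells, measured 113, 96.5 and 78.5 CPM in the -/- libraries, against 258, 196 and 170.0 CPM in those of flox/flox. Its groups did not overlap. The change was -1.11 ± 0.18 (log2, SE), 2.16-fold lower, with an adjusted p of 0.00319 in edgeR's quasi-likelihood test over all genes tested. Zic5, which in the mouse is needed for neural tube closure and for neural crest, measured 47.4, 40.1 and 30.9 CPM in the -/- libraries, against 109, 90.3 and 77.9 CPM in those of flox/flox. Its groups did not overlap either. The change was -1.22 ± 0.17 (log2, SE), 2.34-fold lower (adjusted p = 0.00203, edgeR). Of all 20549 genes tested, 35.3% passed this threshold of 0.05 (17.4% lower in -/- and 17.9% higher). The groups did not overlap for 51% of them, 25.4% with -/- lower. Passing is therefore common in this comparison. In bulk RNA, fewer cells that express a gene and less of its RNA per cell cannot be told apart.

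Zic1 and Zic4, the chromosome 9 pair, were lower on average in the libraries labelled -/- and did not pass. Zic1, which keeps cerebellar and medial forebrain progenitors from differentiating, measured 355, 303 and 241 CPM in the -/- libraries, against 548, 444 and 309 CPM in those of flox/flox. The groups overlapped, since flox/flox C lay below -/- A. The difference was -0.53 ± 0.21 (log2, SE; adjusted p = 0.0933, edgeR). Zic4, which acts with Zic1 in the cerebellum, measured 84.5, 72.5 and 47.7 CPM in the -/- libraries, against 147, 113 and 67.0 CPM in those of flox/flox. Its lowest flox/flox library lay below 2 of the -/- libraries. The difference was -0.67 ± 0.30 (log2, SE; adjusted p = 0.122, edgeR). Blocked by letter both passed, Zic1 at -0.51 ± 0.06 (adjusted p = 0.000903, edgeR) and Zic4 at -0.65 ± 0.07 (adjusted p = 0.000488, edgeR), where 41.5% of all genes tested were called, 20.3% lower and 21.2% higher. Without flox/flox C they passed as well, at -0.72 (adjusted p = 0.0161, edgeR) and -0.92 (adjusted p = 0.0217, edgeR). Without flox/flox A the differences were -0.33 for Zic1 and -0.40 for Zic4, and without -/- C they were -0.39 and -0.46.

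**Figure D1:**
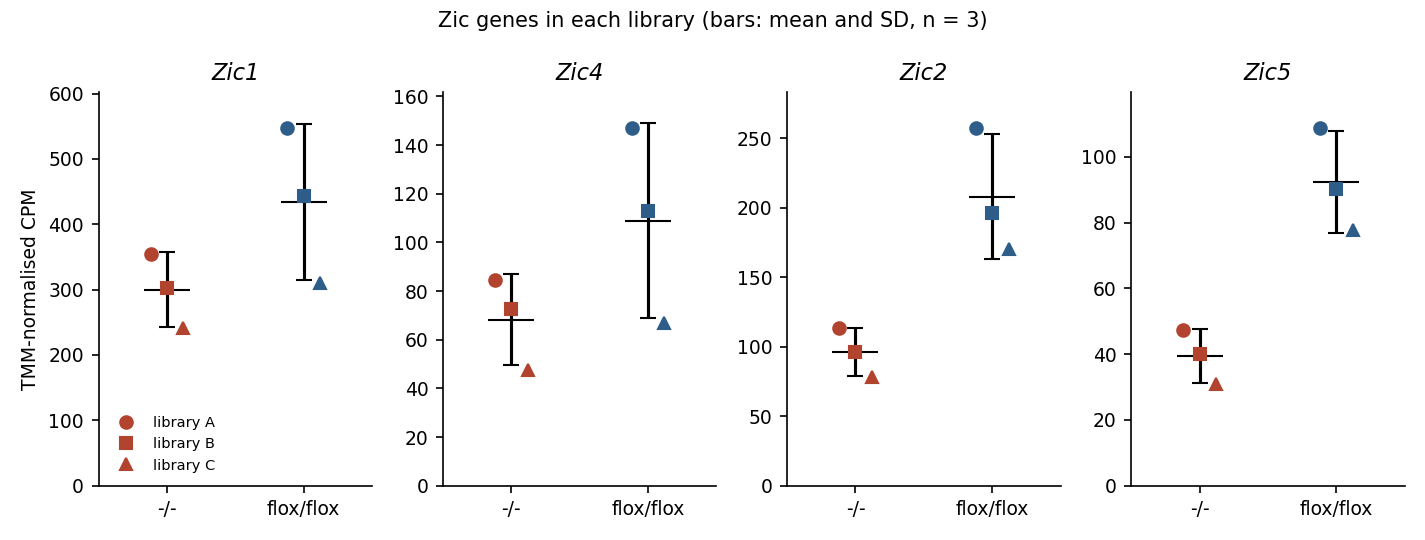
TMM-normalised CPM of the 4 Zic genes in each library, with the libraries labelled -/- left of flox/flox, the mean as a line and the SD as a bar (n = 3 each). For Zic2 and Zic5 all 3 -/- libraries lie below all flox/flox libraries, while for Zic1 and Zic4 flox/flox C lies among the -/- libraries, and in each group library A is highest and C lowest.

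All 4 genes varied in the same way within both groups. Library A held the highest and library C the lowest value of every Zic gene in the -/- group and in the flox/flox group, an order found in both groups for 9.65% of the genes tested. The highest -/- library exceeded the lowest by 1.44-fold for Zic2, 1.47-fold for Zic1, 1.53-fold for Zic5 and 1.77-fold for Zic4. In flox/flox the same spans were 1.52-fold, 1.77-fold, 1.4-fold and 2.20-fold. The biological coefficient of variation was 0.158 for Zic2, 0.154 for Zic5, 0.189 for Zic1 and 0.258 for Zic4, each above the 0.0956 to 0.100 fitted for genes of like abundance. The difference between libraries of the same letter varied less. The log2 difference of -/- against flox/flox was -1.19, -1.03 and -1.11 for Zic2 and -1.20, -1.17 and -1.33 for Zic5 at letters A, B and C. For Zic1 it was -0.62, -0.55 and -0.36, and for Zic4 -0.80, -0.64 and -0.49. All 4 genes were thus lower in -/- at each of the 3 letters.

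**Figure D2:**
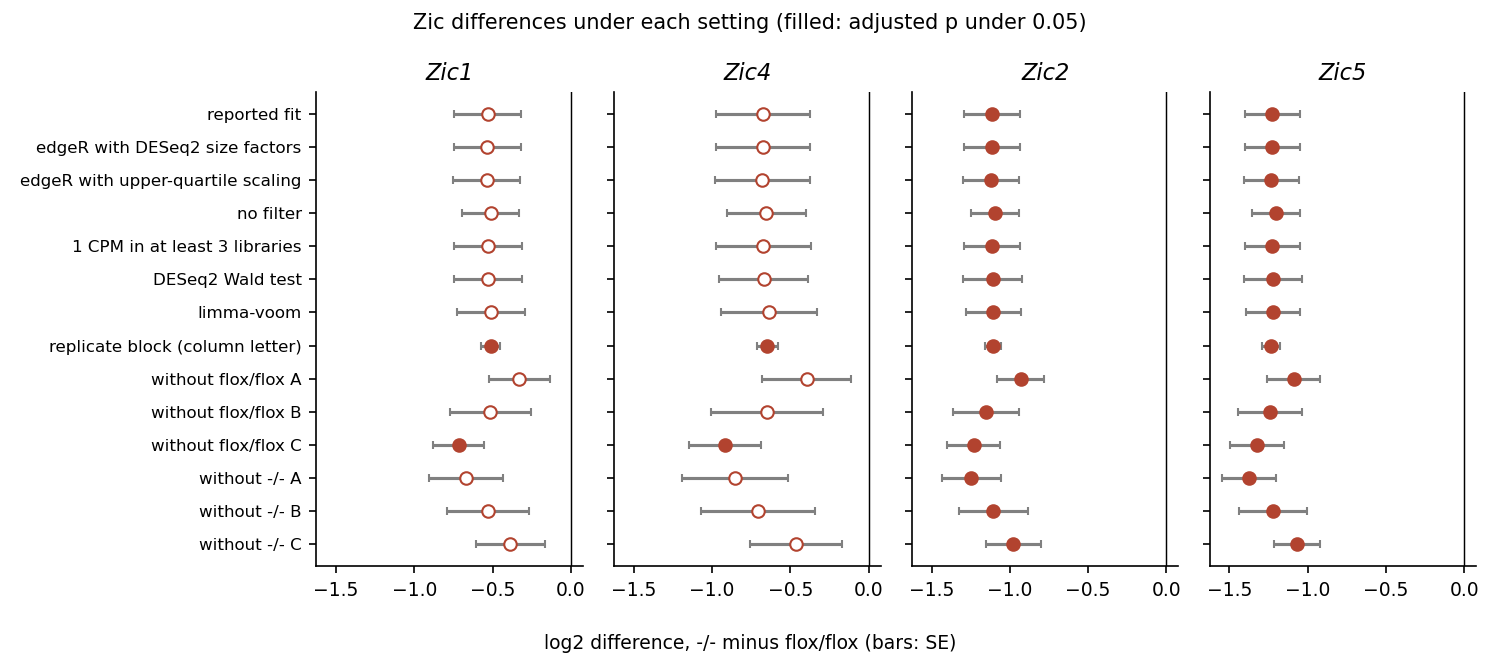
Log2 difference of -/- minus flox/flox (bars, SE) for each Zic gene in the reported fit, at the top, and under 13 alternatives, with filled points where the adjusted p was under 0.05. Zic2 and Zic5 were filled in every setting drawn, whereas Zic1 and Zic4 were filled under the letter block and when flox/flox C was left out.

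Per kilobase of exon, Zic1 and Zic2 were the abundant members in both groups. Zic1 stood at 52.7 ± 10.0 CPM per kb in -/- and 76.2 ± 20.97 CPM per kb in flox/flox (SD, n = 3). Zic2 stood at 33.3 ± 6.02 CPM per kb in -/- and 72.2 ± 15.6 CPM per kb in flox/flox. Zic1 thus led Zic2 in every -/- library, while in flox/flox the levels of Zic1 and Zic2 differed by less than their spread. Zic5 stood at 8.07 ± 1.69 CPM per kb in -/- and 18.9 ± 3.19 CPM per kb in flox/flox, and Zic4 at 6.60 ± 1.82 CPM per kb in -/- and 10.5 ± 3.89 CPM per kb in flox/flox. Zic5 was above Zic4 in each -/- library and in each flox/flox library. Among 14743 protein-coding genes tested, ranked by this level, Zic1 was 549th in -/- and 288th in flox/flox, and Zic2 was 1162nd in -/- and 319th in flox/flox. Zic5 was 5929th in -/- and 2529th in flox/flox, and Zic4 was 6765th in -/- and 4704th in flox/flox. The summed level of the 4 genes was 120, 102 and 80.6 CPM per kb in the -/- libraries, against 222, 175 and 136 CPM per kb in those of flox/flox, so that the groups did not overlap. This order depends on the length used, since the exons of the 12 transcripts of Zic4 add up to 10335 bases and its longest transcript has 3891. Per kb of the longest transcript, a length chosen after these values were seen, Zic4 was above Zic5 in every library, at 17.5 ± 4.83 CPM per kb in -/- and 27.995 ± 10.3 in flox/flox, while Zic5 had 8.28 ± 1.73 in -/- and 19.4 ± 3.27 in flox/flox (SD, n = 3). Zic4 then ranked 3927th in -/- and 2219th in flox/flox, and Zic5 7083rd in -/- and 3405th in flox/flox. Zic1 remained above Zic2 in each -/- library, and Zic2 was above Zic1 in each flox/flox library. Which transcripts these cells use was not tested.

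The make-up of the Zic sum shifted towards Zic1 in the libraries labelled -/-. Zic1 made up 52.3% ± 0.229 of the sum in -/- and 42.6% ± 2.27 in flox/flox (SD, n = 3). Zic2 made up 33.2% ± 0.557 in -/- and 40.9% ± 2.36 in flox/flox, and Zic5 8.00% ± 0.134 in -/- and 10.8% ± 0.879 in flox/flox. The share of Zic4 was 6.48% ± 0.657 in -/- and 5.80% ± 0.894 in flox/flox, so the groups overlapped, though it was higher in -/- at each of the 3 letters. Per kb of the longest transcript the share of Zic1 was 45.1% ± 0.578 in -/- and 36.7% ± 1.67 in flox/flox, and that of Zic4 14.6% ± 1.37 in -/- and 13.1% ± 1.90 in flox/flox. A ratio between members within a library does not depend on the scaling. The ratio of Zic1 to Zic2 per kb was 1.59, 1.59 and 1.55 in the -/- libraries, against 1.075, 1.14 and 0.921 in those of flox/flox, a log2 difference of 0.60. All 4 ratios of a chromosome 9 member to a chromosome 14 member were higher in every -/- library than in any flox/flox library, by 0.47 (Zic4 to Zic2) to 0.72 (Zic1 to Zic5) on the log2 scale. Each had an exact two-sided permutation p of 0.1, the smallest that 3 against 3 libraries can give, and 0.12 adjusted over the 6 ratios. Within the pairs the ratios moved less. Zic1 to Zic4 was 8.13 ± 0.912 in -/- and 7.43 ± 0.852 in flox/flox (exact permutation p = 0.4; SD, n = 3), and Zic2 to Zic5 was 4.15 ± 0.139 in -/- and 3.80 ± 0.185 in flox/flox (exact permutation p = 0.1; SD, n = 3), without overlap. At each letter both ratios were higher in -/-, Zic1 to Zic4 at 7.63, 7.59 and 9.19 in the -/- libraries, against 6.76, 7.14 and 8.39 in those of flox/flox. The permutation tests do not use the letters.

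**Figure D3:**
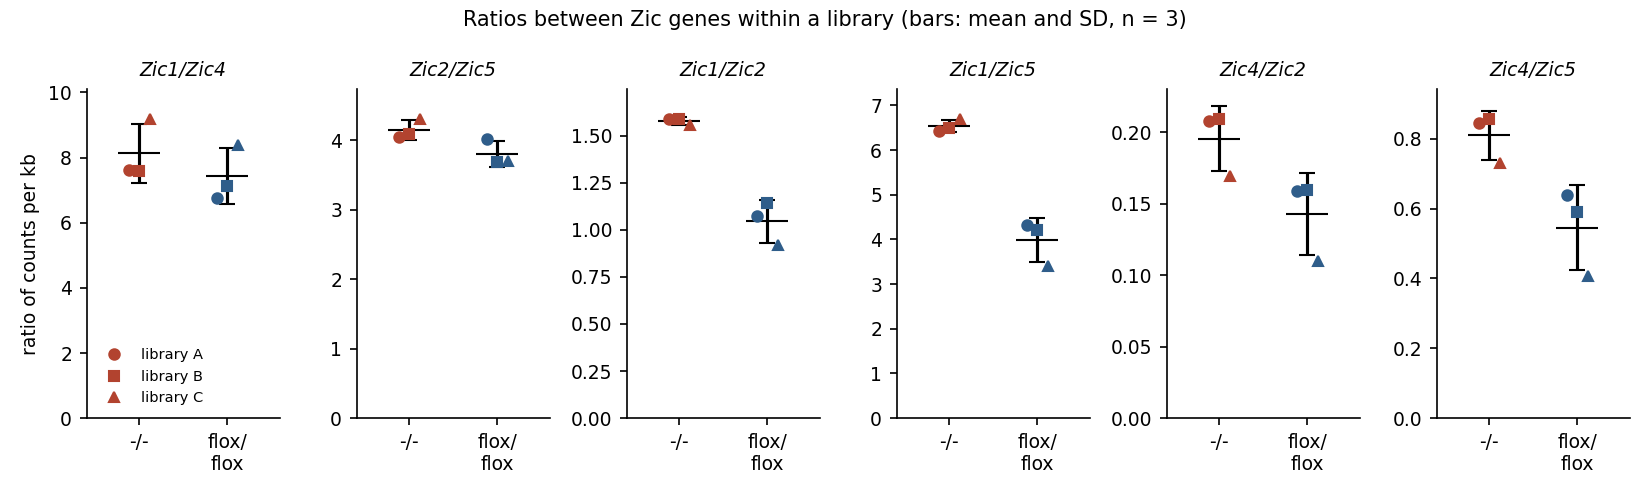
Ratio of counts per kb of exon between 2 Zic genes in each library, with -/- left of flox/flox, the mean as a line and the SD as a bar (n = 3 each). The 4 panels on the right, which set a chromosome 9 gene over a chromosome 14 gene, show no overlap between groups. In the leftmost panel, Zic1 over Zic4, the groups overlap. In the panel beside it, Zic2 over Zic5, the groups do not overlap either.

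Around the chromosome 14 pair 4 genes fell, 3 of them the tested genes nearest to the pair on its Zic5 side or within it. Of 24 annotated genes within 500 kb of Zic5 and Zic2, 13 passed the filter, of which 4 fell and 0 rose, where 17.4% of all genes tested fell. The noncoding gene 2610035F20Rik lies between Zic5 and Zic2 on the strand opposite to Zic2, with its start at -0.236 kb from that of Zic2. It measured 7.50, 6.44 and 5.45 CPM in the -/- libraries, against 14.4, 13.0 and 9.64 CPM in those of flox/flox, and fell 1.91-fold (adjusted p = 0.00716, edgeR). Gm5089, a protein-coding gene whose start lies at -24.3 kb from that of Zic2, measured 1.35, 1.33 and 0.669 CPM in the -/- libraries, against 5.74, 2.93 and 1.99 CPM in those of flox/flox. It fell 3.15-fold (adjusted p = 0.0218, edgeR), a call lost without -/- B or without -/- C (adjusted p = 0.0555 in both). Clybl, which encodes a mitochondrial enzyme that clears citramalyl-CoA, measured 11.8, 10.8 and 7.74 CPM in the -/- libraries, against 53.9, 28.6 and 16.7 CPM in those of flox/flox. It fell 3.26-fold (adjusted p = 0.0145, edgeR), with a log2 change of -1.70, or -1.15 without flox/flox A. In these 3 genes, as in the Zic genes, library A was highest and C lowest in each group.

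Of the other 10 tested genes around this pair 1 passed. Ubac2, which encodes a membrane protein of endoplasmic reticulum protein degradation, fell 1.21-fold (adjusted p = 0.0263, edgeR), a call lost without flox/flox A, flox/flox B, -/- B or -/- C (adjusted p up to 0.101, edgeR). On the other side of Zic2, Pcca, the gene of a propionyl-CoA carboxylase subunit, had a difference of -0.29 ± 0.19 (log2, SE; adjusted p = 0.281, edgeR), and Tmtc4 one of 0.16 ± 0.08 (adjusted p = 0.167, edgeR). The remaining 7 had differences between -0.50 (Gm9399, a pseudogene) and 0.40 (Ggact, the gene of an enzyme that splits isopeptide crosslinks) and did not pass, except Ggact when -/- C was left out. Around Zic1 and Zic4 GENCODE lists 16 genes within 500 kb, none of them protein-coding, and 2 passed the filter. Gm37477, which overlaps Zic4, measured 4.35, 3.94 and 2.53 CPM in the -/- libraries, against 7.30, 5.39 and 3.90 CPM in those of flox/flox. Its difference of -0.61 ± 0.28 (log2, SE; adjusted p = 0.125, edgeR) did not pass, and it passed under the letter block (adjusted p = 0.01) and without flox/flox C. Part of its reads may be those of Zic4, which was not tested.

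**Figure D4:**
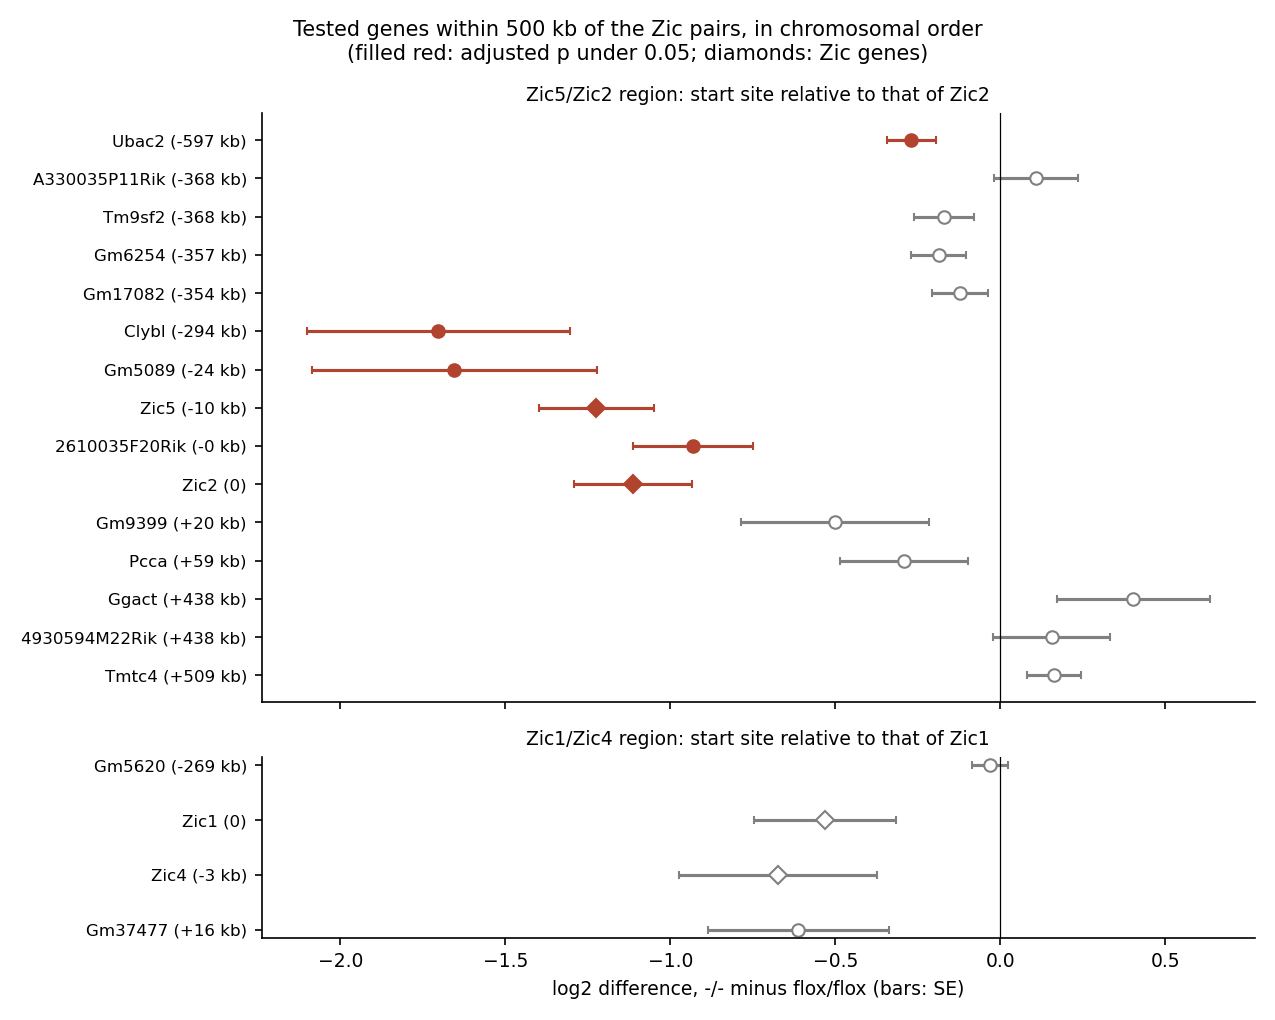
Log2 difference of -/- minus flox/flox (points, with SE as bars) for the tested genes within 500 kb of each Zic pair, in chromosomal order, with the distance of each start site from that of Zic2 (upper panel) or Zic1 (lower panel) beside the name. From Clybl to Zic2 the 5 consecutive genes lie between -1.70 and -0.93 and are filled, as is Ubac2 at -0.27, and the other points are not filled.

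Of the Gli and Glis genes, the closest relatives of Zic by their zinc fingers, 4 of 6 fell and 1 rose. Of all genes tested, 17.4% fell and 17.9% rose. The median log2 difference of the 6 was -0.48, beside -0.0025 over all genes tested. Glis3, a regulator of pancreatic and thyroid development, measured 31.0 ± 13.9 CPM in -/- and 168 ± 45.9 CPM in flox/flox (SD, n = 3), and fell by 2.43 on the log2 scale (adjusted p = 0.00228, edgeR). Glis1 fell by 1.48 and Gli2, the main activator of the Hedgehog response, fell by 0.63. Glis2 fell by 0.32, a call lost when flox/flox A, flox/flox B, -/- A or -/- B was left out. Gli1, itself a Hedgehog target, rose by 0.74. Its difference lay between 0.60 and 0.86 with a library left out, and its call was lost without flox/flox B or -/- B (adjusted p up to 0.0641, edgeR), where 0 of the list passed as higher. Gli3, the Hedgehog repressor and a binding partner of Zic proteins, stood at 286 ± 36.2 CPM in -/- and 349 ± 28.9 CPM in flox/flox and did not pass (adjusted p = 0.0695, edgeR), though it did under the letter block and without -/- A.

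Of 13 genes of proteins reported to bind Zic factors, 3 rose and 2 fell, and the median was -0.08. This share is near the 35.3% called among all genes tested. Tcf7l2, a Wnt pathway factor that ZIC2 binds, rose by 0.52 (adjusted p = 0.00389, edgeR), and Prkdc, the catalytic subunit of DNA-dependent protein kinase, rose by 0.41. Gli1 and Gli2, described above, are also of this list. Mdfic, an inhibitor relative of I-mfa, fell by 0.67, a call lost without flox/flox A, -/- A, -/- B or -/- C, with differences from -0.81 to -0.40 over left-out libraries. Without flox/flox B only 1 member rose, Tcf7l2, and without flox/flox A, -/- B or -/- C 1 fell.

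Reported Zic targets were listed by the species of the report. Of 8 genes reported in mouse or human, 5 were tested, of which 2 rose and 1 fell. Over all genes tested 17.9% rose and 17.4% fell. Ephb1, the guidance receptor that Zic2 controls in retinal axons, measured 21 ± 3.10 CPM in -/- and 10.9 ± 2.76 CPM in flox/flox (SD, n = 3), and rose by 0.95 (adjusted p = 0.00863, edgeR). Foxa2, a floor plate factor, rose by 1.05, a call lost without flox/flox B, -/- A or -/- B, with differences from 0.81 to 1.22 over left-out libraries. Apoe, the apolipoprotein E gene, measured 17.7 ± 1.82 CPM in -/- and 34.7 ± 8.11 CPM in flox/flox, and fell by 0.97 (adjusted p = 0.00415, edgeR). Pax3 and Nodal had differences of -0.45 and -0.57 and did not pass, but passed with the block, where 3 of the list fell. Nodal also passed without flox/flox C, where 2 fell. Atoh1, Drd1 and Slc6a4 held 26, 13 and 45 reads over the 6 libraries and were not tested. Of 7 genes placed downstream of Zic1 or its relatives in frog embryos, 4 fell and 0 rose, with a median of -1.73. The shares over all genes tested were 17.4% and 17.9%. Wnt8b measured 68.7 ± 16.9 CPM in -/- and 357 ± 124 CPM in flox/flox and fell by 2.38 (adjusted p = 0.00095, edgeR). En2 fell by 1.97, Snai2 fell by 1.82 and Wnt4 fell by 1.73. Wnt1, at -1.62, Aqp3 and Foxd3 did not pass, and Wnt1 passed without flox/flox C, with no filter and with the block.

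Among 17 genes of holoprosencephaly, the malformation linked to ZIC2, 5 fell and 3 rose, with a median of -0.24. The share that rose is near the 17.9% of all genes tested that did, while 17.4% of all genes tested fell. The Hedgehog co-receptor genes Gas1 and Cdon fell the most. Gas1 measured 27.8 ± 2.10 CPM in -/- and 174 ± 52.0 CPM in flox/flox (SD, n = 3), and fell by 2.65 (adjusted p = 0.000342, edgeR). Cdon measured 35.2 ± 6.13 CPM in -/- and 148 ± 53.6 CPM in flox/flox, and fell by 2.07 (adjusted p = 0.00129, edgeR). Shh, the ligand, and Ptch1, its receptor and target, rose by 4.41 and 2.17, and the Notch ligand gene Dll1 by 0.50, a call that, of the 6 libraries left out in turn, held only without flox/flox C. Dhcr7, an enzyme gene of cholesterol synthesis, fell by 0.24, and Tgif1, a repressor of TGF-beta signals, fell by 0.57. The fifth was Gli2. Without flox/flox B 3 members fell, and under the letter block 9 did. Six3, a forebrain factor that activates Shh, was at 41.2 ± 3.65 CPM in -/- and 36.4 ± 6.39 CPM in flox/flox and did not pass (adjusted p = 0.346, edgeR).

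The secreted signals of the dorsal midline, where Zic genes are expressed, fell in 10 of 12 members and rose in 0. Their median was -2.16, and 8 to 11 fell with a library left out. Here too, 17.4% of all genes tested fell and 17.9% rose in the reported fit. Rspo2 and Rspo3, enhancers of Wnt signalling, had log2 changes of -2.59 and -1.91, and the BMP gene Bmp6 one of -3.36. Of 9 dorsal transcription factors 8 were tested, of which 5 fell and 0 rose, with a median of -0.76. With a library left out 4 to 5 of them fell. The roof plate factor Lmx1a fell by 3.04, and Msx1 and Msx2, induced by BMP signals, had log2 changes of -4.03 (-3.16 without flox/flox A) and -2.10. The log2 differences of Zic2 and Zic5 thus lay between the median of these factors and that of the dorsal signals. Those of Zic1 (-0.53) and Zic4 (-0.67) lay outside that range.

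**Figure D5:**
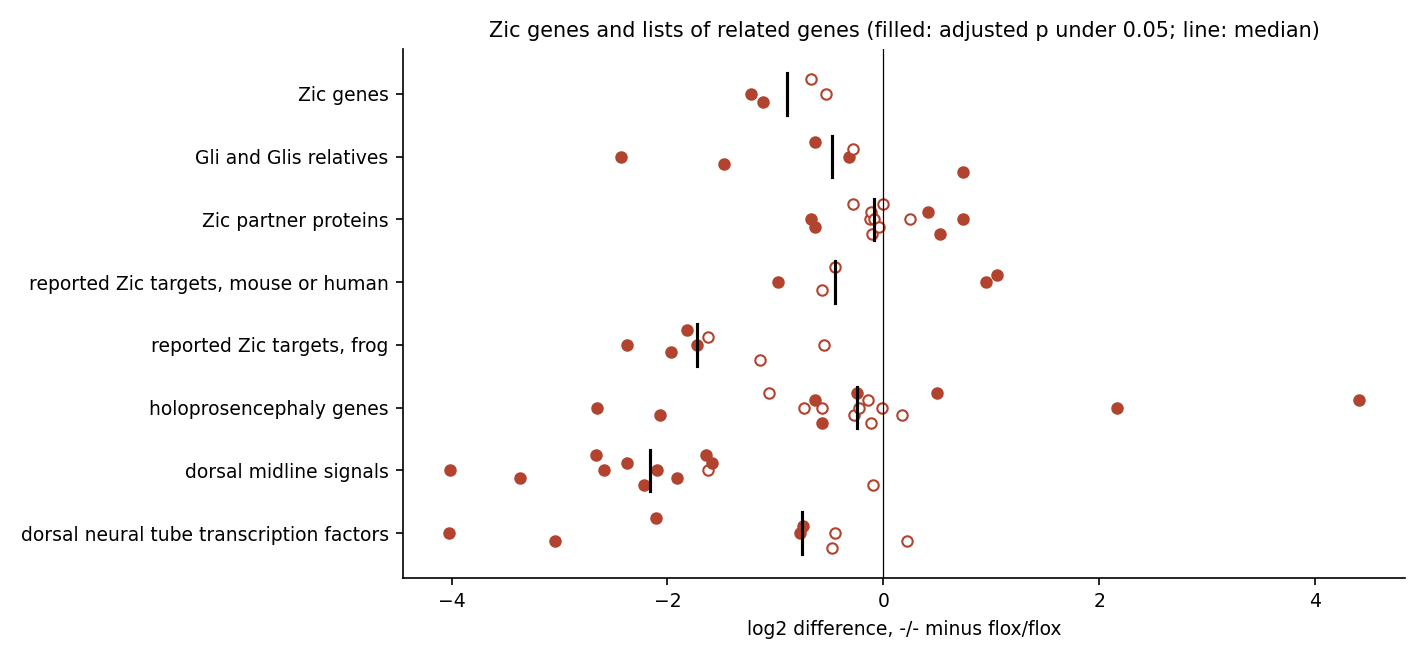
Log2 difference of -/- minus flox/flox for the 4 Zic genes and for the tested members of 7 lists of related genes, filled where the adjusted p was under 0.05, with the median of each row as a line. The dorsal midline signals have the lowest median, -2.16, and the partner proteins the one nearest 0, -0.08.

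Markers of other cell types moved with the groups as well, and their part in the Zic differences was not tested. The counts below stand beside 17.4% of all genes tested that fell and 17.9% that rose in the reported fit. Neural progenitor markers summed to 3576 to 3860 CPM in -/- and 3648 to 4159 CPM in flox/flox. Most of each sum was Vim and Nes, both lower in -/-. Vim stood at 1487 ± 128 CPM in -/- and 1978 ± 224 CPM in flox/flox (SD, n = 3). Nes stood at 676 ± 46.3 CPM in -/- and 813 ± 77.9 CPM in flox/flox. Of the 10 progenitor markers, 6 were higher and 3 lower (3 higher without -/- B, 1 lower without flox/flox B or -/- B). Neuron markers summed to 3231, 3598 and 5278 CPM in the -/- libraries, against 1699, 2052 and 2651 CPM in those of flox/flox. In each group this sum was lowest in library A and highest in C, the reverse of the Zic genes. In flox/flox, however, Nefl and Nefm were lowest in C, at 269 and 225 CPM. Of the 12 neuron markers 11 rose (7 without flox/flox A and 5 without flox/flox B). Meningeal and mesenchymal markers are of a tissue that also expresses Zic genes. They summed to 247, 238 and 173 CPM in -/- and 732, 330 and 303 CPM in flox/flox. The gap was mostly that of Col3a1, at 97.2, 103 and 73.1 CPM in -/- and 537, 244 and 203 CPM in flox/flox. Without Col3a1 the sums of the groups overlapped. Of the 12 markers, 6 fell, 3 without -/- B. Only Col1a2 rose, by 1.73 on the log2 scale (0 to 2 markers rose with a library left out). Of 8 neural crest markers 4 rose and 2 fell (2 rose without flox/flox B, and 1 fell when any library but -/- B was left out), and Sox10, which defines the crest, was between 0.0760 and 0.493 CPM. Pluripotent cell markers, summing to 95.2 to 141 CPM in -/- and 176 to 181 CPM in flox/flox, fell in 6 of 12, 3 without flox/flox B, and rose in 0 (1 under the letter block). Of 10 markers of cerebellar granule precursors, 4 rose and 2 fell, and Atoh1, which defines these cells, was at most 0.405 CPM in any library.

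The genes whose profile over the 6 libraries was most like that of each Zic gene were sought among 11037 protein-coding genes by the Euclidean distance between log2 CPM centred on their mean. Nearest to Zic2 were S1pr2, a sphingosine-1-phosphate receptor gene (distance 0.116), Sulf2, an extracellular sulfatase gene (0.136), and Vwa5a (0.160). Nearest to Zic5 were the protocadherin gene Pcdh19 (0.107), S1pr2 (0.144) and Lmo7 (0.154), and Zic2 and Zic5 lay 0.194 from each other. Zic5 was 14th in likeness to Zic2, and Zic2 11th to Zic5. Nearest to Zic1 were H2-K1, a class I histocompatibility gene (0.103), Phactr2 (0.127) and Wipf1 (0.139). Nearest to Zic4 were Axin2, a feedback inhibitor of Wnt signalling (0.212), Cavin1 (0.230) and the matrix gene Sparc (0.295), all on chromosome 11. Zic1 and Zic4 lay 0.356 apart, which made Zic1 the 8th in likeness to Zic4 but Zic4 the 74th to Zic1. Between the pairs the distances ran from 0.763 (Zic4 and Zic2) to 0.924 (Zic1 and Zic5).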

How the data were processed

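The authors deposited raw counts of reads for each Ensembl gene in 6 libraries. Per the submitters' processing notes, the authors used BWA 0.5.9 and featureCounts 1.4.6 with mm10 (GRCm38). Per the labels' protocols, libraries were made from 1 µg RNA with a stranded poly(A) kit. The deposited table's name says that duplicates were marked. Whether marked reads entered the counts is not given in the sources used here, nor are the gene annotation's release, the strand option or the handling of multimapping reads. Columns name a genotype and a letter, not a replicate number, and were assigned to groups. Of 48526 identifiers, 48058 have a symbol in GENCODE M21.

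Differential expression was tested with the two-sided quasi-likelihood test of edgeR 4.0.16 in R 4.3.3, with TMM factors, filterByExpr (minimum count 10, total 15), the group alone in the model and Benjamini-Hochberg adjustment over 20549 genes at a threshold of 0.05. The code was tested on simulated data. Libraries of a group differed by more than sampling noise (chi-square per gene 5.47 to 29.8), so each counted as 1 sample. Deviations from the group means correlated between libraries of the same letter over 20549 genes (r = 0.275, 0.101 and 0.264 for A, B and C), so the letter served as a block in an alternative fit. The letters come from the column names, and the labels do not say what they mark. Ratios between members were compared with exact permutation tests (SciPy 1.17.1). Alternatives were other scalings, filters and a threshold of 0.01, DESeq2 1.42.0, limma-voom (limma 3.58.1) and each library left out.

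The members and 13 gene lists were chosen with earlier results of these data known. Named genes are the members, up to 3 per direction of each list of related genes with the smallest adjusted p, marker genes at or near 0, tested neighbours within 500 kb and the 3 nearest profiles (mean of at least 5 CPM). Other genes given by name were chosen after their values were seen.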

Additional observations from a re-analysis of the deposited data

How the results depend on the processing

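Zic2 and Zic5 kept their direction and their call under all 13 alternatives, with log2 differences from -1.25 to -0.93 for Zic2 and from -1.37 to -1.07 for Zic5. When each library was left out in turn these ranges were the same. Zic1 and Zic4 were lower in -/- under all 13 alternatives. They passed with the column letter as a replicate block (-0.51 and -0.65) and without flox/flox C, and their range over left-out libraries was -0.72 to -0.33 for Zic1 and -0.92 to -0.40 for Zic4. The cause was not tested. Over their alternatives adjusted p lay between 0.000903 and 0.261 for Zic1 and between 0.000488 and 0.344 for Zic4. The genes called were 7250, against 8529 with the replicate block and 3887 at a threshold of 0.01. The genes called, higher in -/-, were 3679, and 1992 at 0.01. The genes called, lower in -/-, were 3571, and 1895 at 0.01. With a library left out the counts ran from 4717 (without flox/flox B) to 6846 in all, 2315 (without flox/flox B) to 3510 higher and 2342 (without -/- B) to 3336 lower. The neighbour Gm5620 was at -0.032 in the reported fit, and between -0.051 (without -/- C) and 0.017 (without -/- B) with a library left out. The exact permutation test used for the ratios cannot give a p under 0.1 with 3 libraries a group. Per kb of the longest transcript, added after seeing the data, the order of Zic4 and Zic5 turned in both groups.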
